A study of Mus musculus with 2 samples.

Results

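Class I antigen presentation and the immunoproteasome were followed through 10 genes of the 13528 in the filtered expression table of mouse liver immune cells. The members are set by a list of names, which was drawn up with earlier results of these data known, and all 10 were found. They are B2m, H2-K1 and H2-D1, which encode the class I molecule itself, Tap1, Tap2 and Tapbp, which bring peptide to it, Psmb8, Psmb9 and Psmb10, the catalytic subunits of the immunoproteasome, and Nlrc5, the transactivator of class I genes. The study captured CD45+ liver cells, and read the transcripts of each cell together with 49 surface proteins, in 2 libraries. In the TG library cells of dnTGFβRII mice, called TG mice here, were pooled with cells of IFN-γ ARE-Del-/- mice, and in the WT library cells of wild type mice were pooled with cells of P40-/-IL-2Ra-/- mice. The transgene of TG mice is a human type II TGF-β receptor that acts as a dominant negative, placed behind the CD4 promoter of the mouse and so active foremost in T cells, and the mice are studied as a model of primary biliary cholangitis. All mice were C57BL/6 with an age of 10 weeks by the labels, while the study's own methods state a lower age, and how many animals were pooled is not given in the sources used here.

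The deposited cell table gives a genotype to 4647 TG cells with 18498477 RNA molecules, counted as unique molecular identifiers (UMIs), and to 7282 WT cells with 22216379 UMIs, at medians of 3298 and 2653.5 UMIs per cell. The other 5379 cells of the TG library and 16829 cells of the WT library carry no genotype name. With 1 library per genotype no test was possible, and genotype cannot be told apart from the library a cell was captured in. Every interval of a level, ratio or share is a 95% interval that covers counting error only. What is given beside a median of the members spans the intervals of its middle genes. That span is not a 95% interval of the median, and its width depends on which genes are in the middle. The library files shared 267 cell barcodes, of which 36 belonged to named cells in both. Levels are UMIs of a gene per 1000000 UMIs (CPM) summed over the cells of 1 deposited cell type in 1 library, and 9 cell types with at least 50 cells in each library were compared. Differences are log2 ratios of TG over WT with exact conditional binomial intervals.

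Class I molecules show peptides from inside the cell to CD8 T cells, and natural killer cells read their presence. The peptides come largely from the proteasome, pass through the TAP transporter into the endoplasmic reticulum and are fitted into the heavy chain and β2-microglobulin there with the help of tapasin. Interferon-γ is known to raise the class I genes, partly through NLRC5, and to bring in the immunoproteasome, in which Psmb8, Psmb9 and Psmb10 replace the constitutive subunits Psmb5, Psmb6 and Psmb7. Leukocytes carry class I molecules and immunoproteasome without such a stimulus, so none of the cell types here served as a negative for these genes.

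Of the 10 genes, 7 lie on chromosome 17 (GENCODE annotation of GRCm38). Psmb9 (17:34181987-34187764, minus strand), Tap1 (17:34187553-34197225, plus strand), Psmb8 (17:34197721-34201454) and Tap2 (17:34203527-34216321) follow each other, with Tapbp (17:33915899-33929292) and H2-K1 (17:33996017-34000347) on the side of Psmb9 and H2-D1 (17:35262730-35267499) on the side of Tap2. B2m is on chromosome 2 (122147686-122153083), and Psmb10 (8:105935735-105938444) and Nlrc5 (8:94434356-94527272) are on chromosome 8. All are annotated as protein coding. The starts of Tap1 and Psmb9 overlap on opposite strands. H2-D1 shared 140 of its 2028 windows of 75 bases with other annotated transcripts, H2-K1 24 of 1545 and Tapbp 28 of 2824, and the other 7 members shared 0. In the last 500 bases of each transcript, 0 windows were shared for any member.

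The stretches just upstream of B2m and H2-K1 are shown because both hold the known motifs of class I promoters close together, and these genes carry the pattern in levels described below. The sequences are those of RefSeq on GRCm38.p6, written 5′ to 3′ on the strand of the gene. The B2m stretch is chr2:122147486-122147685 on the plus strand and the H2-K1 stretch chr17:34000348-34000547 on the minus strand, each of 200 bases that overlap no annotated exon. Capitals mark, in order, the core of the interferon-stimulated response element, a kappa-B site, the CRE core and a CCAAT box in B2m, and a kappa-B site matched at neighbouring positions, the CRE core and a CCAAT box in H2-K1. Only the spellings that were searched are in capitals.
B2m: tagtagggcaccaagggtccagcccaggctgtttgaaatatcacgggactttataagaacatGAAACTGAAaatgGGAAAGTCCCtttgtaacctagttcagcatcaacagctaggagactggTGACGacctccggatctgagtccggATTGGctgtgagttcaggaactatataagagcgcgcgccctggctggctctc
H2-K1: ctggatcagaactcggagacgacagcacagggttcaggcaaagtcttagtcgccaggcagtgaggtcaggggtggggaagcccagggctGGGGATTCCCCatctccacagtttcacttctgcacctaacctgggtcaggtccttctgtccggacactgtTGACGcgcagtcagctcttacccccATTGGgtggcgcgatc

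Motifs were searched on both strands in the RefSeq window of 300 bases around each gene start, which was at hand for 8 members and not for Tap2 and Nlrc5. The CCAAT box (ATTGG) was found in 6 of the 8 windows (B2m, H2-K1, H2-D1, Tap1, Tapbp and Psmb9) against 37.4% of all 32851 windows, and the CRE core (TGACG) in 5 (the same genes without Tapbp) against 20.8%. A kappa-B site was found in B2m, H2-K1 and H2-D1 against 8.46% of all windows. The interferon-response core (GAAANNGAA) was found in B2m against 8.56% of all windows, and the STAT site (TTCNNNGAA) in Psmb8 against 8.30%. The interferon-response core was searched in this spelling alone. The letters tttcacttc of the H2-K1 stretch hold GAA and GAAA in the other order on the opposite strand and were not counted. A window without a match can therefore still hold a related element. Tap1 and Psmb9 start next to each other, so their windows share sequence and are not separate cases. H2-K1 and H2-D1 are related genes that share stretches of transcript and held the same number of each motif. They may not be separate cases either. A match describes letters in a window and not a bound site.

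Some deposited cell type names were not borne out by their markers, and values of these sets are given under the deposited name. Cells deposited as monocytes, all of them cluster 5 (204 TG and 258 WT cells), held the neutrophil genes S100a8 at 21390 and 10790 CPM and Csf3r at 2862 and 2960 CPM in TG and WT, beside the monocyte genes Ccr2 at 21.7 and 40.2 CPM, Ly6c2 at 436 and 297 CPM and Lyz2 at 1871 and 1420 CPM, and are called cluster 5 cells below. Cells deposited as macrophages held 1 UMI of C1qa and 0 of Vsig4 in TG against 346 and 60 in WT in the library files, and also held the dendritic cell genes Flt3, Xcr1 and Cd209a. Cells deposited as NK cells held the T cell genes Cd3d, Cd3e and Cd3g at 2155 CPM in the TG library and 660 CPM in the WT library, and 343 TG cells against 22 WT cells lay in their cluster 11. Haemoglobin transcripts stood at 4361 CPM in CD8αα T cells and 1522 CPM in NK cells of the WT library, and at no more than 4.09 CPM in any TG cell type. Hepatocyte genes held 10 UMIs or fewer in every cell type of either library. The 3 neutrophil genes summed to 259 to 405 CPM in the lymphocyte types of TG against 72.7 to 133 CPM in those of WT, were higher in TG in each, and stood at 359 against 446 CPM in macrophages. The 3 B cell genes were also higher in TG in each of the T, NKT and NK cell types, for example at 103 against 27.3 CPM in CD8αα T cells and 86.1 against 30.6 CPM in NKT cells. The part of these contents in the member values was not tested.

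B2m, the light chain shared by all class I molecules, was higher in TG mice in each of the 9 cell types, with every interval above 0. In TG its level ran from 3464 CPM in mature B cells over 5201 CPM in cluster 5 cells to 5943 CPM in NKT cells, and in WT from 2103 CPM in immature B cells over 3176 CPM in CD4 T cells to 4884 CPM in CD8αα T cells. The 5 cell types that were low in WT differed most. B2m stood at 5777 against 3020 CPM in macrophages (log2 0.94, interval 0.87 to 1.00, with 0.87 in cluster 15 and 0.67 in cluster 22), at 5201 against 2912 CPM in cluster 5 cells (0.84, 0.75 to 0.93) and at 3661 against 2103 CPM in immature B cells (0.80, 0.73 to 0.87). CD4 T cells (0.68) and mature B cells (0.59) also passed 1.5-fold. The cell types that were high in WT differed less, with NKT cells at 5943 against 4717 CPM (0.33), NK cells at 5381 against 4698 CPM (0.20, 0.15 to 0.24) and CD8αα T cells at 5553 against 4884 CPM (0.19, 0.12 to 0.25). CD8αβ T cells lay between, at 4466 against 3488 CPM (0.36).

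**Figure D1:**
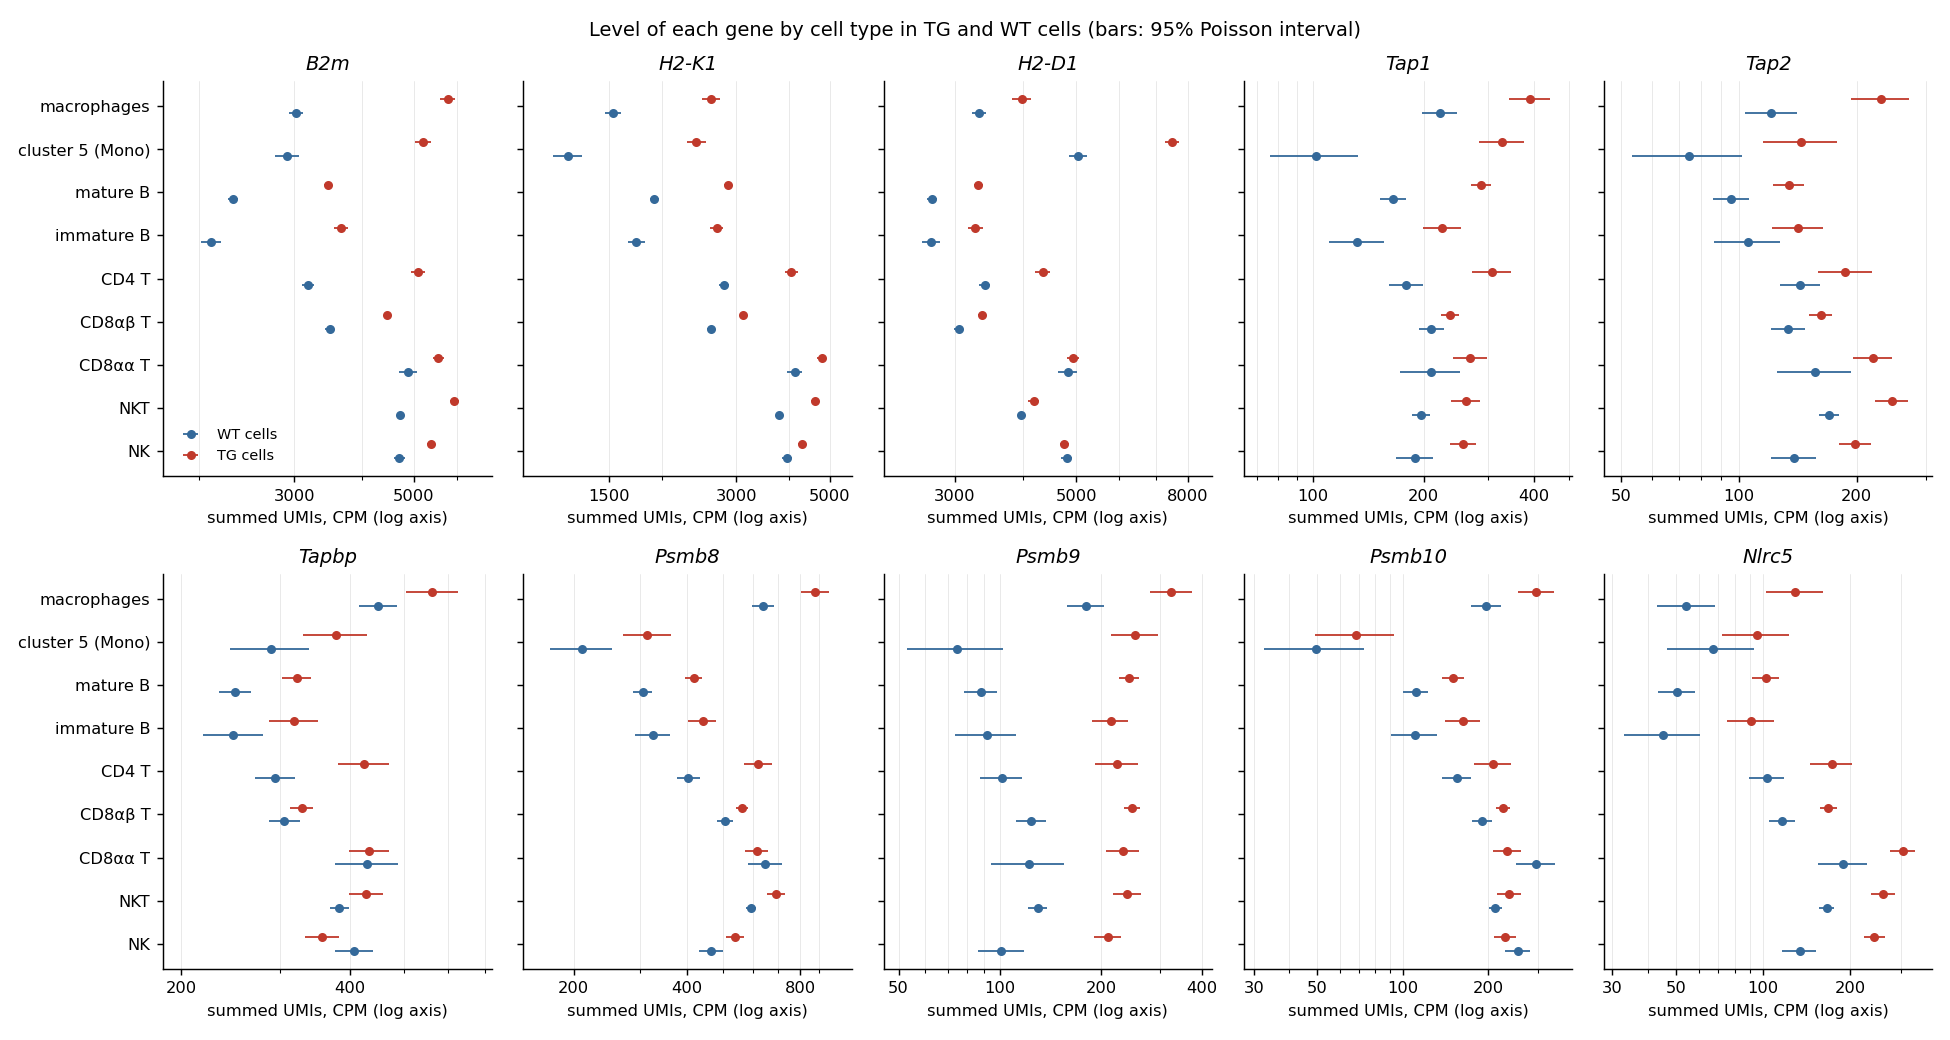
Level of each member in CPM (log axis) by cell type in the TG and WT libraries, with exact Poisson intervals. B2m and Psmb9 lie higher in TG in all 9 cell types, whereas the H2-D1 points of NK cells (4759 and 4806 CPM) nearly coincide.

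The heavy chain genes H2-K1 and H2-D1 did not differ to the same extent. H2-K1 was higher in TG in 9 of 9 cell types, from 4286 against 3958 CPM in NK cells (log2 0.11, 0.07 to 0.16) to 2414 against 1202 CPM in cluster 5 cells (1.01, 0.87 to 1.14). It passed 1.5-fold in macrophages (2617 against 1537 CPM), cluster 5 cells and immature B cells (2700 against 1744 CPM), and missed it narrowly in mature B cells at 1.49-fold (2868 against 1924 CPM). H2-D1 passed 1.5-fold in none of the 9 and came closest in cluster 5 cells, at 7476 against 5038 CPM (0.57, 0.50 to 0.64). In CD8αα T cells H2-D1 stood at 4931 against 4824 CPM (0.03, −0.03 to 0.10) and in NK cells at 4759 against 4806 CPM (−0.01, −0.06 to 0.03), so that no difference was detectable at this depth. Reads of H2-D1 and H2-K1 can match near-identical class I genes over part of their length, and how the pipeline split such reads was not tested.

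Tap1 and Tap2 encode the subunits of the peptide transporter, and their intervals lay above 0 in 9 of 9 cell types. Tap1 stood furthest apart in cluster 5 cells, at 328 CPM in TG from 196 UMIs against 101 CPM in WT from 53 UMIs (log2 1.69, 1.248 to 2.16). It passed 1.5-fold in 4 more cell types, macrophages (390 against 221 CPM, 0.82), mature B cells (287 against 165 CPM, 0.80), CD4 T cells (308 against 179 CPM, 0.78) and immature B cells (225 against 132 CPM, 0.77). CD8αβ T cells showed the smallest Tap1 difference, at 236 against 210 CPM (0.17, 0.03 to 0.31). Tap2 passed 1.5-fold in macrophages (230 against 121 CPM, 0.93) and in cluster 5 cells (144 against 74.6 CPM, 0.95, 0.38 to 1.53), and its other log2 ratios ran from 0.28 in CD8αβ T cells to 0.53 in NKT cells. Tapbp encodes tapasin, which holds the empty class I molecule at the transporter. It passed 1.5-fold in none of the 9 cell types and its highest ratio was that of CD4 T cells, at 424 against 294 CPM (0.53, 0.33 to 0.72). In NK cells Tapbp was lower in TG, at 358 against 407 CPM (−0.19, −0.34 to −0.04). It lay below the value of each NK cluster, where Tapbp stood at −0.13 in cluster 3, −0.05 in cluster 8 and 0.15 in cluster 11, and it was −0.01 with clusters of equal weight. Tapbp intervals of CD8αβ and CD8αα T cells held 0.

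Psmb9 was the 1 member that passed 1.5-fold in all 9 cell types. In TG its level lay between 209 CPM in NK cells and 323 CPM in macrophages with a median of 239 CPM, and in WT between 74.6 CPM in cluster 5 cells and 180.0 CPM in macrophages with a median of 101 CPM. Every TG level of Psmb9 exceeded every WT level. The largest ratio was that of cluster 5 cells, at 252 CPM from 151 UMIs against 74.6 CPM from 39 UMIs (log2 1.76, 1.24 to 2.30), followed by mature B cells at 243 against 87.7 CPM (1.47, 1.28 to 1.66) and immature B cells at 214 against 91.4 CPM (1.22, 0.88 to 1.58). The smallest was that of macrophages with all cells summed, at 323 against 180.0 CPM (0.85, 0.57 to 1.12). Macrophages mix clusters at unequal shares. Their Psmb9 ratio was 1.18 (0.79 to 1.59) in cluster 15 (89 TG and 158 WT cells) and 0.48 in cluster 22 (20 and 80 cells). Cluster 27 held 23 WT cells and no named TG cell, so the last place of macrophages depends on the mixture. The T and NK cell types lay between 0.88 in NKT cells and 1.14 in CD4 T cells, also where B2m and H2-D1 differed little. In NK cells Psmb9 stood at 209 against 101 CPM (1.05, 0.79 to 1.32). CD8αβ T cells mix clusters at unequal shares, with 145 TG and 363 WT cells in cluster 4 and 319 and 132 in cluster 7, and within their clusters the Psmb9 ratio was 0.52 in cluster 4, 0.91 in cluster 7, 0.69 in cluster 12, 0.61 in cluster 13 and 1.57 in cluster 18, beside 0.99 for the whole.

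Psmb8 and Psmb10 encode the other catalytic subunits, and their differences were smaller than that of Psmb9 in every cell type. Psmb8 passed 1.5-fold in CD4 T cells, at 619 against 404 CPM (log2 0.62, 0.45 to 0.78), and its interval lay above 0 in 8 of 9. Within the clusters of the CD4 T cells the Psmb8 ratio was 1.16 in cluster 6, 0.23 in cluster 9 and 0.13 in cluster 21. Cluster 6 held 58 of 238 TG cells and 397 of 734 WT cells, so the value past 1.5-fold belongs to that cluster and to the mixture of clusters. Among the other cell types the exception was CD8αα T cells, at 614 against 647 CPM (−0.08, −0.26 to 0.11). Psmb10 passed 1.5-fold in none, though macrophages reached the bound within rounding at 296 against 197 CPM (0.58, 0.31 to 0.86). In CD8αα T cells Psmb10 was lower in TG, at 232.5 against 294.6 CPM (−0.34, −0.62 to −0.06). Psmb10 in NK cells (229 against 254 CPM) and in cluster 5 cells (41 against 26 UMIs) had intervals that held 0.

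Nlrc5, the transactivator that sits on class I promoters, passed 1.5-fold in 7 of 9 cell types and its interval lay above 0 in 8. In macrophages Nlrc5 stood at 129 CPM from 79 UMIs against 54.3 CPM from 76 UMIs (log2 1.249, 0.78 to 1.72), in mature B cells at 102 against 50.4 CPM (1.02, 0.76 to 1.29) and in immature B cells at 90.8 against 45.2 CPM (1.01, 0.50 to 1.53). Lymphocytes without a B cell receptor held more of it in either library, up to 304 against 189 CPM in CD8αα T cells (0.69, 0.37 to 1.01). NK cells differed by 0.86 (243 against 134 CPM) as a whole. Their cluster 3 stood at 0.88 and cluster 11 at 0.86 (343 TG and 22 WT cells), while cluster 8 fell short of 1.5-fold at 0.38. Cd3d, Cd3e and Cd3g stood at 290 and 172 CPM in TG and WT in cluster 8. They stood at 3078 and 1102 CPM in cluster 3 and at 2507 and 346 CPM in cluster 11. CD8αβ T cells (0.53, 0.35 to 0.71) fell short of 1.5-fold as a whole, while their clusters 7, 12 and 13 passed it (1.149, 0.74 and 0.70), their clusters 4 and 18 did not (0.32 and 0.42), and the value with clusters of equal weight was 0.67. The clusters have unequal shares in the libraries, with 319 TG and 132 WT cells in cluster 7 and 145 and 363 in cluster 4. In cluster 5 cells the interval held 0 (57 against 35 UMIs, 0.51, −0.12 to 1.16).

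**Figure D2:**
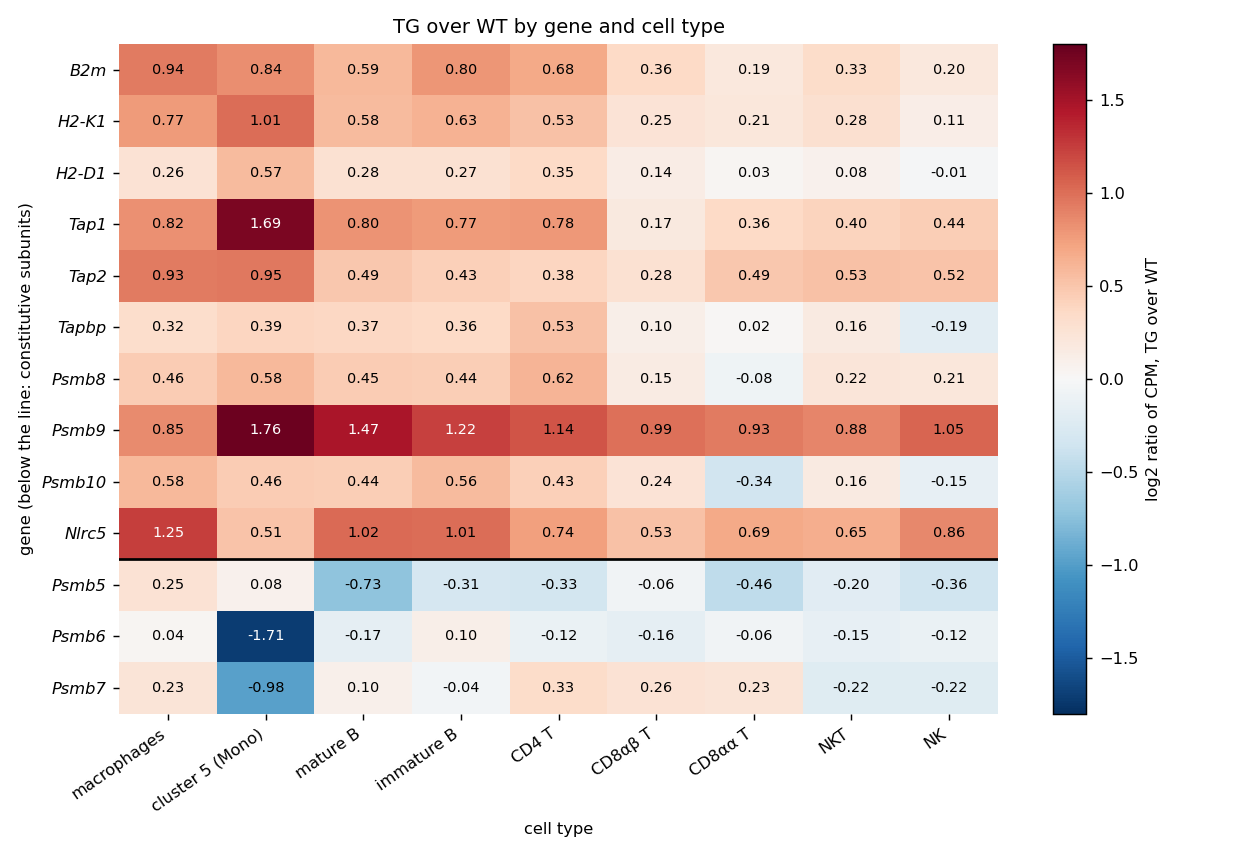
Heat map of the log2 ratio of TG over WT, printed in each square, for the 10 members (rows above the line) and the 3 constitutive subunits (rows below it) in 9 cell types (columns), with red for higher in TG and blue for lower; cluster 5 cells are those deposited as monocytes. The Psmb9 row lies between 0.85 and 1.76 and the H2-D1 row between −0.01 and 0.57.

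Over all genes and cell types, 32 of the 90 member ratios were at least 1.5-fold higher in TG and 0 were at least 1.5-fold lower. The member ratios with an interval below 0 were Tapbp in NK cells and Psmb10 in CD8αα T cells. The background is the share of all genes with at least 20 UMIs over both libraries that were at least 1.5-fold higher in TG. In macrophages 6 of the 10 members passed against 15.5% of all genes, in cluster 5 cells 5 against 12.2%, in mature B cells 4 against 5.90%, in immature B cells 5 against 9.39% and in CD4 T cells 5 against 16.8%. The CD4 T cells mix clusters at unequal shares, and in their cluster 9 (132 TG and 272 WT cells) Psmb9 alone passed, with B2m at 0.48, Tap1 at 0.56 and Nlrc5 at 0.51, while Psmb10 was at −0.51 in cluster 6 and −0.21 in cluster 21. In CD8αβ T cells 1 member passed against 11.0%, in CD8αα T cells 2 against 12.7%, in NKT cells 2 against 10.8% and in NK cells 2 against 9.33%. In these last 4 cell types the members that passed were Psmb9 and, except in the summed CD8αβ T cells, Nlrc5, and the count lay near the background. In the other direction 0 members passed in any cell type, where 10.5% of all genes were at least 1.5-fold lower in macrophages, 15.9% in cluster 5 cells, 7.81% in mature B cells, 10.4% in immature B cells, 8.92% in CD4 T cells, 8.30% in CD8αβ T cells, 9.46% in CD8αα T cells, 6.69% in NKT cells and 11.5% in NK cells. The median log2 ratio of the members was 0.79 in macrophages, 0.71 in cluster 5 cells, 0.60 in immature B cells, 0.57 in CD4 T cells and 0.53 in mature B cells, where the medians of all genes lay between −0.08 and 0.09. The order of the first 2 depends on the processing, since the median of cluster 5 cells was 1.03 with equal weight for each cell, 1.05 after thinning to 1000 UMIs, 1.05 without doublets and 1.18 without cells holding a T or B cell transcript, where macrophages stood at 0.65 to 0.80. The median log2 ratio of the members was 0.31 in NKT cells, 0.25 in CD8αβ T cells, 0.20 in CD8αα T cells and 0.20 in NK cells, beside medians of all genes between −0.05 and 0.04.

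**Figure D3:**
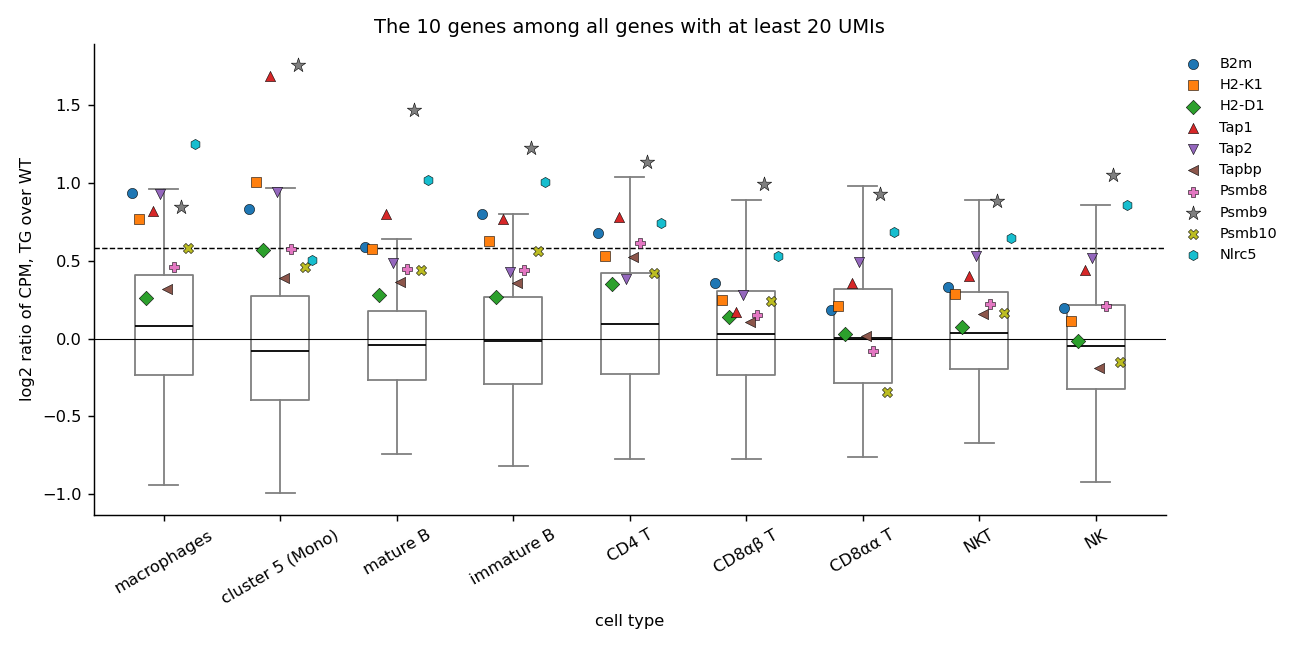
Log2 ratio of TG over WT (vertical axis) of the 10 members, 1 symbol per gene, beside all genes with at least 20 UMIs in 9 cell types; boxes span the quartiles with the median as a line, whiskers run from the percentile 5 to the percentile 95, and the dashed line marks 1.5-fold. The member medians lie from 0.20 in CD8αα T cells and NK cells to 0.79 in macrophages with all cells summed, and Psmb9 lies above the dashed line in all 9.

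The spread of a gene over the cell types was taken as the ratio of its highest to its lowest level. It was smaller in TG for B2m (1.72-fold in TG and 2.32-fold in WT), H2-K1 (1.98 and 3.44), Psmb9 (1.54 and 2.41), Tap1 (1.73 and 2.18), Tap2 (1.84 and 2.28), Psmb10 (4.31 and 5.92) and Nlrc5 (3.35 and 4.18). The values lay close together for Tapbp (1.77 and 1.82) and Psmb8 (2.79 and 3.08). The spread was larger in TG for H2-D1 (2.28 and 1.85), with its highest level in cluster 5 cells of either library. Without that set H2-D1 ran from 3275 to 4931 CPM in TG and from 2719 to 4824 CPM in WT. The larger TG spread of H2-D1 therefore rests on cluster 5 cells. In WT, cluster 5 cells set the lowest level of H2-K1, Tap1, Tap2, Psmb8, Psmb9 and Psmb10, so these WT spreads rest on that set. The next WT level of Tap1 was 132 CPM in immature B cells, against 101 CPM in cluster 5 cells. That of Tap2 was 95.5 CPM in mature B cells, against 74.6 CPM. Without cluster 5 cells Tap1 ran from 225 to 390 CPM in TG and from 132 to 221 CPM in WT. Tap2 ran from 134 to 246 CPM in TG and from 95.5 to 170 CPM in WT. The smaller TG spread of both genes is not kept without that set. For the remaining genes the spread without cluster 5 cells was not calculated. Many neighbours in the order could not be separated. For Tap1 and Tap2 the intervals of all 8 neighbouring pairs overlapped in either library, for Psmb9 8 pairs in TG and 7 in WT, and for B2m 5 pairs in TG and 4 in WT. H2-K1 was ordered best, with overlap in 3 pairs in TG and 1 in WT.

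Mean member level over the 9 cell types was compared with all 6544 other genes of at least 20 CPM, as a description over 9 points per library that share their depth. The members did not all follow that mean in TG, where Psmb9 (Spearman's rho 0.02 with the mean of the other members), H2-D1 (0.13) and Tap1 (0.22) stood apart, and 5 of 9 TG cell types kept their rank after thinning. The genes with the most similar order were Rgs1, a regulator of G protein signalling (Spearman's rho 0.95 in TG and 0.95 in WT), Mrfap1 (0.92 and 0.92), Ap3b1, a subunit of the AP-3 adaptor (1.00 and 0.90), Tapbpl, which encodes the tapasin relative TAPBPR (0.90 and 0.93), and Lpar6, a lysophosphatidic acid receptor (0.90 and 0.93).

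The balance of immunoproteasome over constitutive proteasome does not depend on how the libraries were scaled, since it is a share of UMIs inside the same cells. Psmb8, Psmb9 and Psmb10 together made up 66.4% to 79.5% of the UMIs of the 6 catalytic genes in WT and up to 90.3% in TG. In mature B cells the share was 79.5% in TG (2725 of 3428 UMIs) against 67.1% in WT (1812 of 2702), 12.4 percentage points higher (Newcombe interval 10.2 to 14.7). In cluster 5 cells it was 90.3% against 75.1% (15.2 points, 9.12 to 21.6), in immature B cells 76.4% against 66.4% (10.0 points, 6.07 to 14.04, and 17.0 after thinning) and in CD4 T cells 78.2% against 68.8% (9.43 points, 6.19 to 12.6). The TG share was higher in all 9 cell types and the interval of the difference lay above 0 in 8. CD8αα T cells were the exception, at 81.0% against 79.5% (1.48 points, −1.87 to 5.02), and they had the highest share of any WT cell type. Their difference was −2.94 points once each cell was thinned to 1000 UMIs and 0.95 points with equal weight for each cell. In immature B cells it was 11.35 points with equal weight for each cell. Thinned values rest on fewer UMIs and have no interval here.

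The pairs of subunits that replace each other did not contribute alike. For Psmb9 and Psmb6 the interval lay above 0 in 9 of 9 cell types, with Psmb9 at 75.4% of the pair in TG mature B cells and 49.7% in WT mature B cells, and at 67.2% and 47.6% in NK cells. For Psmb8 and Psmb5 it lay above 0 in 6, for example at 89.0% against 78.1% in mature B cells. For Psmb10 and Psmb7 it lay above 0 in 4, and in CD8αα T cells the Psmb10 share was 73.2% in TG against 80.2% in WT (−7.04 points, −13.7 to 0.21). The constitutive genes themselves passed 1.5-fold higher in 0 of 27 ratios and 1.5-fold lower in 3, a share within the 6.69% to 15.9% of all genes. These 3 were Psmb5 in mature B cells (51.5 against 85.4 CPM, log2 −0.73) and Psmb6 and Psmb7 in cluster 5 cells, where they rested on 7 and 11 UMIs in TG.

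**Figure D4:**
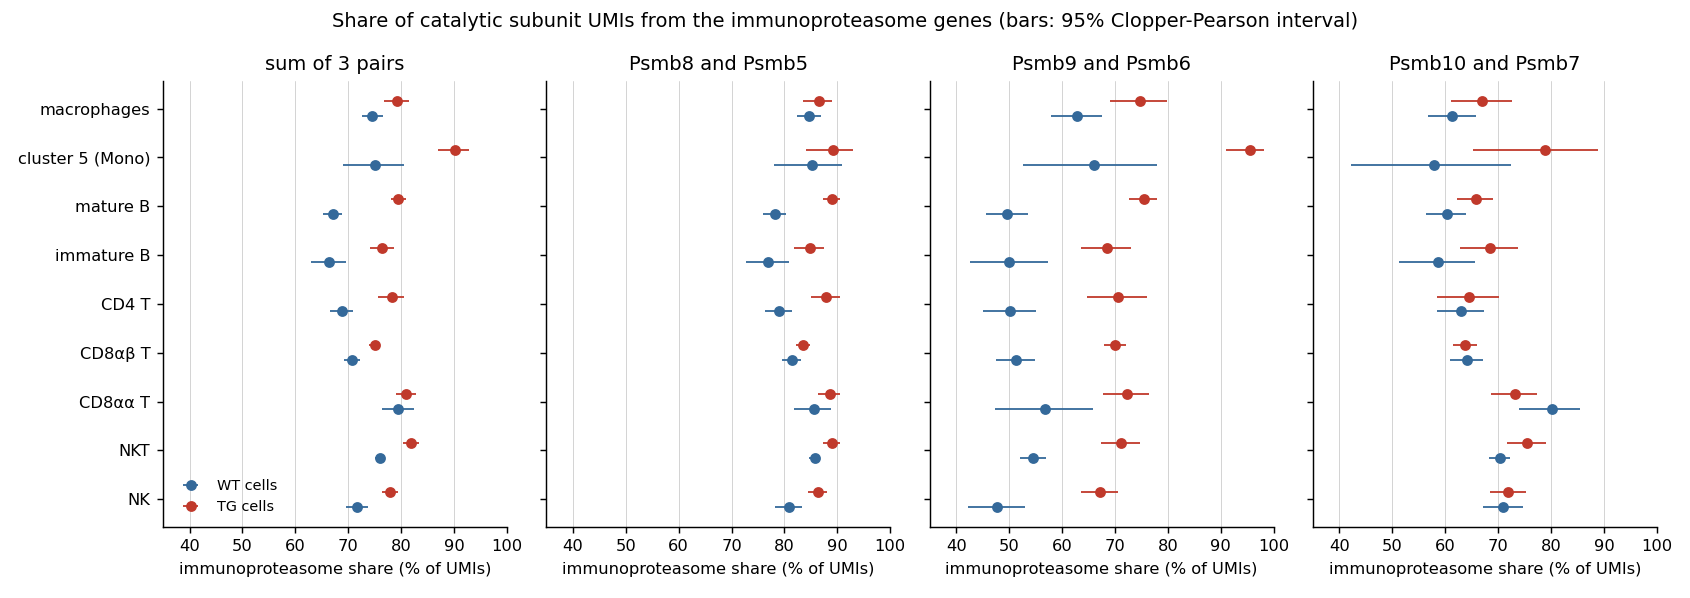
Share of the immunoproteasome gene in the UMIs of the 6 catalytic proteasome genes (left panel) and of each pair (other panels), in percent by cell type, in TG (red) and WT (blue) with Clopper-Pearson intervals. In the left panel TG lies above WT in each cell type, with the widest gap in cluster 5 cells (90.3% and 75.1%) and the narrowest in CD8αα T cells (81.0% and 79.5%).

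Where the difference was large, most cells of the TG library lay above most cells of the WT library. The summed UMIs of B2m, H2-K1 and H2-D1 per 10000 UMIs of a cell had a median of 150.2 in TG macrophages (quartiles 84.0 and 209.6) against 76.0 in WT (57.1 and 113), and of 96.0 in TG mature B cells (80.6 and 111) against 64.4 in WT (48.6 and 81.7). In 6 of 9 cell types the TG median lay above the third quartile of WT. In macrophages and mature B cells the ranges between the quartiles still overlapped. In NK cells the medians lay closer together and the ranges overlapped widely, at 142 (124 and 165) against 134 (108 and 160). After each cell was thinned to 1000 UMIs, Psmb9 was found in 17.65% to 22.02% of TG cells and 7.36% to 17.2% of WT cells across the cell types. Without thinning these shares were 44.1% to 68.8% and 13.2% to 44.4%, so detection depended strongly on depth.

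Among the deposited clusters 22 held at least 20 cells of each library, 1 of them of plasmacytoid dendritic cells. The median member ratio of a cluster ran from 0.07 to 0.84. The span of its middle genes held 0 in clusters 4, 12, 13 and 18 of the CD8αβ T cells. It also held 0 in clusters 19 and 20 of the NKT cells and 14, that of the plasmacytoid dendritic cells. In NKT cluster 19 the ratio was above 0 for 5 of the 10 members. Psmb9 was higher in TG in 21. The exception was cluster 20 of the NKT cells, at 206 CPM in 23 TG cells against 230 CPM in 119 WT cells (log2 −0.16). Among CD8αβ T cells the highest Psmb9 level was in cluster 7 of either library (324 and 173 CPM), and the lowest was in cluster 4 (122 and 84.9 CPM). Among macrophages the median member ratio was 0.84 in cluster 15 (89 TG and 158 WT cells) and 0.42 in cluster 22 (20 and 80 cells). Cluster 27 of the macrophages held 23 WT cells, with Psmb9 at 45.04 CPM, and no named TG cell, and it enters the WT level of the cell type. Which genes entered the clustering is not given in the sources used here, and cluster values are descriptions.

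Of the other class I genes fixed as a list, 29 of 82 ratios (35.4%) were at least 1.5-fold higher in TG and 2 lower, with a median log2 ratio of 0.38, where the share of all genes at least 1.5-fold higher ran from 5.90% in mature B cells to 16.8% in CD4 T cells. H2-T22, a nonclassical class I gene, had an interval above 0 in 9 of 9 cell types with ratios from 0.42 in CD8αβ T cells to 2.09 in cluster 5 cells (170 against 40.2 CPM). H2-Q7, a Qa-2 gene, likewise ran from 0.23 in NKT cells to 1.47 in cluster 5 cells. H2-Q6 ran from −0.39 to 1.76, with an interval above 0 in 5 cell types and below 0 in 3. Most ratios of the list that passed lay outside the CD8, NKT and NK types. It passed in 1 of 10 ratios in CD8αβ T cells, 1 of 9 in CD8αα T cells, 2 of 11 in NKT cells and 1 of 10 in NK cells. The list medians there were 0.03, 0.01, 0.37 and 0.26. These genes are near copies of each other and of the members, so their counts are uncertain. The rest of the proteasome, the α and noncatalytic β subunits with the maturation factor Pomp and the activators Psme1, Psme2 and Psme3, passed in 8 of 134 ratios (5.97%, median 0.17), no more often than genes at large. These were Psmb3 in 3 cell types (highest log2 ratio 1.07), Psma1 in 2 (highest 1.05), Psma5 in 2 and Psma2 in 1. Psma4 was lower by 1.5-fold in 1. Psme1 passed in 0, with an interval above 0 in 7 of 9 cell types and a highest log2 ratio of 0.52. Peptide loading genes outside the members passed in 4 of 44 ratios (9.09%, median 0.01), near the shares of all genes. These were Tapbpl in 2 cell types and Pdia3 and Erap1 in 1 each, and Tapbpl was lower by 1.5-fold in 1. The chaperones Calr and Canx passed in 0, and Calr had an interval below 0 in 4.

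Among the regulators 19 of 131 ratios (14.5%) passed 1.5-fold and 5 passed it downwards, with a median of 0.14. The upward share lies among those of all genes in the same cell types, and the downward share lies below that of all genes in each. Irf2 had an interval above 0 in 9 of 9, at ratios of 0.24 to 0.63. Rfx5, a subunit of the complex that recruits NLRC5 to promoters, had few UMIs, with log2 ratios from −0.79 to 0.56 and an interval below 0 in 1 of the 8 cell types tested, NKT cells (30 against 174 UMIs, −0.63, −1.24 to −0.07). Interferon genes and receptors passed in 7 of 42 ratios (16.7%) and passed downwards in 5, again near the shares of all genes. The receptor gene Ifngr2 held 4 of these upward and 2 of these downward ratios, with a median of 0.67 over 7 cell types. Its interval lay above 0 in 4 and below 0 in 1. Ifngr2 stood at 0.83 (0.32 to 1.36) in cluster 5 cells and at −0.64 (−1.51 to 0.16) in CD4 T cells. Ifng itself was higher in TG CD4 T cells (155 against 71.9 CPM, 1.11, 0.75 to 1.46) and CD8αβ T cells (143 against 103 CPM, 0.47, 0.28 to 0.67). It was lower in TG NKT cells (263 against 354 CPM, −0.43, −0.58 to −0.29), mature B cells (59 against 102 UMIs, −0.69) and cluster 5 cells (8 against 22 UMIs, −1.65), and stood at 286 against 285 CPM in NK cells. The summed T cell transcripts were also lower in TG in mature B cells (172 against 358.5 CPM) and cluster 5 cells (246 against 329 CPM), and their part in the Ifng values there was not tested.

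The antibody panel held 1 reagent for a protein that pairs with β2-microglobulin, CD1d, which presents lipids to NKT cells. Its signal was opposite in direction to the B2m transcript. CD1d counts per 10000 antibody counts were lower in TG in 9 of 9 cell types, for example 54.4 against 87.0 in mature B cells and 14.7 against 37.8 in CD8αβ T cells, and the median deposited normalised value was lower in TG in 9 of 9. In immature B cells these medians nearly coincided at 1.289 and 1.297, and the median CD1d count per cell was higher in TG (21 against 19.5) beside median antibody totals per cell of 3280 and 2138.5. The transcript Cd1d1 was lower in TG in 4 of 9, and stood at 47.3 against 46.2 CPM in mature B cells. A share of antibody counts moves with the other antibodies of the panel, and that was not tested.

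The cells without a genotype name give the member levels beside those of named cells of the same library, sorted by transcript gates that used no member. The median log2 ratio of unnamed over named cells was 0.50 in B cells, 0.27 in the CD8 gate, 0.06 in the CD4 gate and 0.61 in myeloid cells of the TG library, and 0.62, 0.24, 0.42 and 0.41 in the same gates of the WT library. In the CD4 gate of the TG library the span of the middle genes held 0 (−0.13 to 0.20), and H2-K1 (−0.07) and H2-D1 (−0.07) had intervals below 0. In the WT myeloid gate that span also held 0 (−0.08 to 1.05), and Tapbp there was lower in unnamed cells (−0.33, −0.52 to −0.13). The CD4 gate held 725 named TG cells and 1098 named WT cells, against 238 and 734 cells deposited as CD4 T cells, so it also takes in other cell types. B2m in B cells stood at 2100 CPM in named WT cells, 3101 CPM in unnamed cells of the WT library, 3549 CPM in named TG cells and 4465 CPM in unnamed cells of the TG library. Psmb9 in B cells followed the same order at 85.3, 169, 230.4 and 361 CPM. The immunoproteasome share of B cells, which does not depend on scaling, was 65.4%, 74.97%, 78.5% and 83.0% in that order. How often genes outside the members follow this order was not tested. The library labels put IFN-γ ARE-Del-/- mice beside TG mice and P40-/-IL-2Ra-/- mice beside wild type mice, but no genotype is given to these cells here. The medians of unnamed over named B cells within a library (0.50 and 0.62) stand beside 0.53 for TG over WT mature B cells between libraries.

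**Figure D5:**
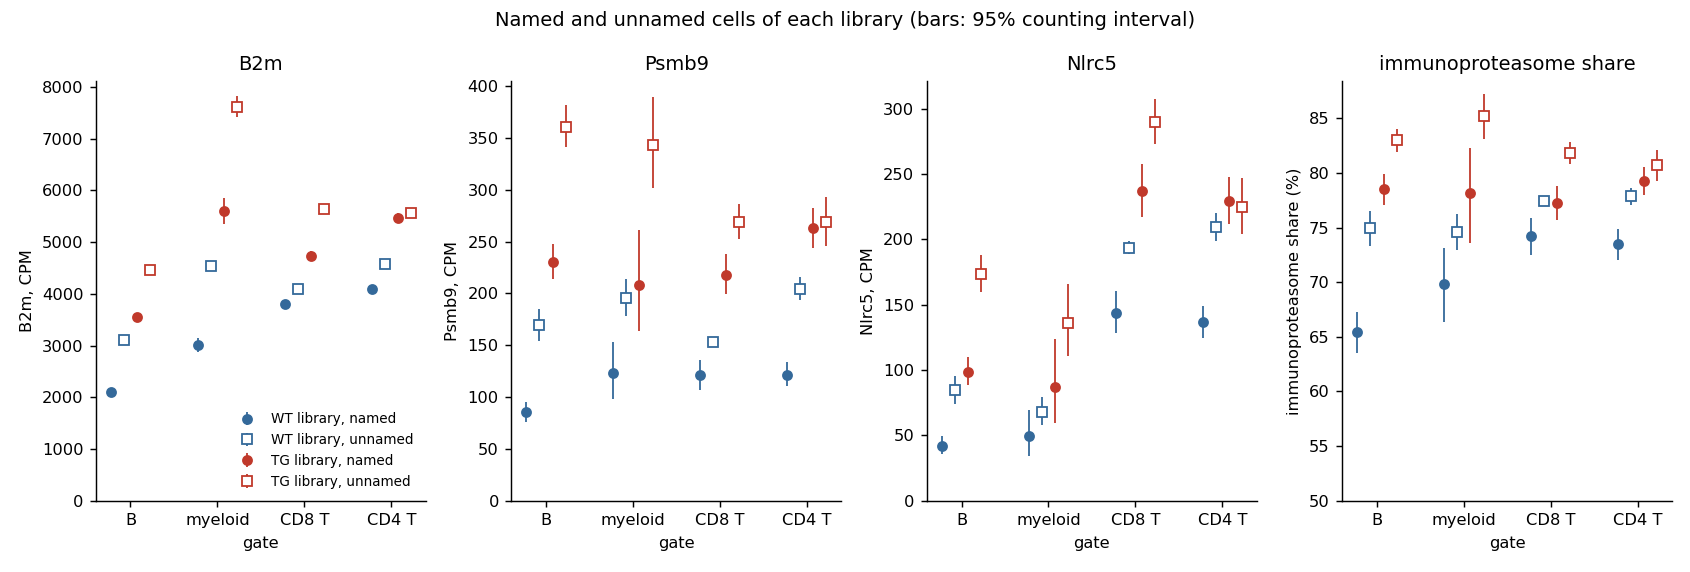
Levels of B2m, Psmb9 and Nlrc5 in CPM and the immunoproteasome share in percent (axis from 50) in named (filled) and unnamed (open) cells of each library, by transcript gate, with counting intervals. For B2m and Psmb9 the named WT cells are the lowest set and the unnamed cells of the TG library the highest in all 4 gates.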

How the data were processed

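Single cells were captured in BD Rhapsody microwells, and the authors aligned reads to mm10 (GRCm38) with STAR in the BD Rhapsody pipeline (version 1.9 per the file headers). The deposited tables hold UMI counts per gene and antibody for each cell, corrected for errors by the pipeline. Normalised antibody values were deposited as natural log ratios centred per cell, and the mitochondrial share of each cell was deposited by the authors as a percent. The authors joined the libraries by CCA in Seurat, and their cell type names and clusters were used as given. Their filter on cells is not given in the sources used here, and a gene detected in few cells of a genotype can stand at 0 for that genotype in the filtered table, so marker genes at 0 were read from the library files.

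Counts were summed per library and cell type and scaled by their total. Levels have exact Poisson intervals, ratios exact conditional binomial intervals, shares Clopper-Pearson intervals and differences of shares Newcombe intervals, all at 95%. For the background of all genes, a pseudocount of 0.5 UMIs was added to both profiles of each gene. The ratios of members and companion genes had no pseudocount. UMIs of 1 cell are not independent draws, so the intervals are narrower than the true error. Unnamed cells with at least 500 UMIs were gated with named ones on Cd79a and Cd79b, on Cd3d, Cd3e and Cd3g with Cd4 or Cd8a, or on Lyz2 and Cst3, with at least 2 UMIs. Doublets called by Scrublet (expected rate 5%) were 0.839% of TG and 3.27% of WT cells and were kept. Cells with over 10% mitochondrial UMIs were 3.83% of TG and 6.26% of WT cells. The members and lists were chosen with earlier results of these data known. All 10 members are named, and from the companion lists the counts and the genes furthest from 0. H2-Q6, Psmb3, Psma1, Psma2, Psma4, Psma5, Psme1, Tapbpl, Pdia3, Erap1, Calr, Canx, Irf2, Rfx5, Ifng, Ifngr2 and the cell types given for them were chosen after their values were seen. For similar order, ties were ranked by mean level.

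Alternatives were TMM scaling, totals without ribosomal and mitochondrial genes, centring on the median of all genes, equal weight per cell or per cluster, thinning to 1000 UMIs, leaving out doublets or cells over 10% mitochondrial, other folds and minimum counts, and stricter gates of 3 UMIs. The ratio calculation was tested on simulated data. Calculations used Python 3.11.15, numpy 2.4.6, scipy 1.17.1, pandas 2.3.3, scanpy 1.11.5 and edgeR 4.0.16 in R 4.3.3 for scaling factors only.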

Additional observations from a re-analysis of the deposited data

Results flagged for a closer look

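Tapbp and Psmb10 had intervals on opposite sides of 0 in different cell types, which set them apart among the members. Tapbp was higher in TG in CD4 T cells (log2 ratio 0.5258, interval 0.3312 to 0.7188) and lower in TG in NK cells (−0.1879, −0.3381 to −0.0373). Within the NK clusters Tapbp was at −0.13 (cluster 3), −0.05 (cluster 8) and 0.15 (cluster 11, 343 TG and 22 WT cells), so the value of all NK cells lay below that of each cluster. Psmb10 was higher in TG in macrophages (0.5846, 0.306 to 0.8602) and lower in TG in CD8αα T cells (−0.3411, −0.6202 to −0.0576). The difference between the cell types was not tested, since each cell type had 1 library per genotype. NK cells of the TG library held more T cell transcripts (2155 against 660 CPM of Cd3d, Cd3e and Cd3g), CD8αα T cells of the WT library held haemoglobin transcripts (4361 CPM), and the macrophages of the libraries differed in C1qa (1 against 346 UMIs). The part of these transcripts in the differences was not tested.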

How the results depend on the processing

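The median member ratio of each cell type was above 0 in 81 of 81 values under the alternatives run. Single-gene ratios kept their sign in all but 7 of 720, with 0 of the 7 among ratios of at least 1.5-fold. Sizes were less stable than signs. Of all results rerun, 30 of 111 moved after thinning and 22 of 100 with clusters of equal weight. With TMM scaling 17 of 100 moved, and 14 of 100 when centred on the median of all genes. A ratio, median or share counted as moved when it left its interval or span. That interval was the one of the full counts, so the added counting error of a thinned value was not taken into account. TMM scaling moved all log2 ratios by −0.10 in macrophages and −0.12 in CD4 T cells and by less elsewhere, and brought the median of CD4 T cells to 0.45. The median of cluster 5 cells, deposited as monocytes, was 1.03 with equal weight for each cell, 1.05 after thinning and 1.05 without doublets. Without cells holding a T or B cell transcript, an alternative added after the data were seen, it was 1.18 in the 105 TG and 192 WT cells left. The median of NKT cells was 0.22 with clusters of equal weight. After thinning, the immunoproteasome share of TG minus WT was 17.0 points in immature B cells and −2.94 points in CD8αα T cells. Thinned shares rest on fewer UMIs, and their intervals were not calculated. With equal weight for each cell and no UMIs left out, the differences were 11.35 and 0.95 points. The cause of the change after thinning was not tested. Member ratios past the bound were 62 at a bound of log2 0.32 and 10 at 2-fold in place of 32. The share of all genes past these other bounds was not calculated, so these counts have no background beside them. The upper quartile of all genes ran from log2 0.18 in mature B cells to 0.42 in CD4 T cells. The median over cell types of the share of all genes past 1.5-fold was 6.23% with at least 100 UMIs and 17.9% with at least 1 UMI in place of 10.9%. No paired analysis was possible because each genotype had 1 library. No replicate could be left out for the same reason, so the intervals say nothing of the spread between animals or captures. Genes with few UMIs, such as Nlrc5, Psmb10 and Psmb6 in cluster 5 cells, were limited by depth.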
